A study of Mus musculus with 12 samples.

Results

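The genes described here are 10 transcription factors of the immediate early response: the FOS family members Fos, Fosb, Fosl1 and Fosl2, the JUN family members Jun, Junb and Jund, the stress-induced factor Atf3, and the zinc finger factors Egr1 and Egr2. They and the gene lists below were chosen by name with earlier results of these data known, so their counts against all genes are descriptions. All 10 were found among the 17544 genes listed for unstimulated cells and the 17874 listed after LPS, of which 16699 appear in both. RNA was sequenced from the J774A.1 mouse macrophage line in 4 groups of 3 libraries: WT, ACAT1 KO, WT with 100 ng/mL LPS for 2 h, and ACAT1 KO with the same LPS. ACAT1 is the mitochondrial acetyl-CoA acetyltransferase that forms and splits acetoacetyl-CoA, and LPS, a bacterial wall component, signals through TLR4. WT cells had received the Cas9 and GFP plasmid without a guide and KO cells the same plasmid with a guide against the fourth exon of Acat1, and both were grown out as clonal populations after sorting, so a difference between genotypes cannot be told apart from a difference between the clones picked. Each group is 3 such lines. The labels do not tie a number to a clone across states, and libraries of 1 genotype and number were taken as 1 line because they deviated together from their group means. The p-values measure the spread between these libraries only.

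AP-1 is a family of dimers that FOS and JUN proteins form through their basic leucine zippers, and ATF3 can pair with the same partners. EGR1 and EGR2 bind GC-rich sites through zinc fingers. Immediate early genes are transcribed without new protein synthesis when MAP kinases, SRF with its partners and CREB are activated, and their transcripts rise and decay fast. In macrophages, AP-1 acts with NF-kB on cytokine genes, and ATF3 is known as a brake on TLR4-driven cytokine transcription.

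The start sites of 3 of these genes are shown because their transcripts carry the results below: Fos and Jun were lower with LPS in both genotypes, and Jun and Egr2 were lower in ACAT1 KO cells after LPS. Each run is the 250 bases before a RefSeq start site on GRCm38.p6, read 5′ to 3′ on the gene's strand, with none of them in an annotated exon of that strand. Capitals mark the CRE half-site TGACG or its reverse complement, the TATA box TATAAA, the CArG box bound by SRF, and in Jun the CRE-like site TGACATCA.
Fos, chr12:85473640-85473889, plus strand: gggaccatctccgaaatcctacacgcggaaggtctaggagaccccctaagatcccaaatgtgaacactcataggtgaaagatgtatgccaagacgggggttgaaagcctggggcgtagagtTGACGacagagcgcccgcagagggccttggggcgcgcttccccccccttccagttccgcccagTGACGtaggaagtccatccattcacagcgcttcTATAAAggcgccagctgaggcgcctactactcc
Jun, chr4:95052223-95052472, minus strand: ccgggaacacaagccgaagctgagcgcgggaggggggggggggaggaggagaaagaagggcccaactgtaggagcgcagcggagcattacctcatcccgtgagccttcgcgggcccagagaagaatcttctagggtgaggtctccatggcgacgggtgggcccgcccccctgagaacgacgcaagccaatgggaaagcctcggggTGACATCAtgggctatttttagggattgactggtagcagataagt
Egr2, chr10:67537619-67537868, plus strand: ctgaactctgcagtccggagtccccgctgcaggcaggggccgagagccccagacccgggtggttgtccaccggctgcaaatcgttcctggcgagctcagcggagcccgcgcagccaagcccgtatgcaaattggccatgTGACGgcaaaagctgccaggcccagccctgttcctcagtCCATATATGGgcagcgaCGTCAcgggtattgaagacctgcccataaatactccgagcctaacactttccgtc
The Fos window holds 2 half-sites, which begin 129 and 66 bases before the start, and a TATA box 33 bases before it. In the Egr2 window shown, a CArG box begins 72 bases before the start, between half-sites that begin 111 and 55 bases before it. That window lies inside the annotated gene (chr10:67535475-67542188), and Egr2 has other RefSeq start sites. The window chr10:67535249-67535498 holds neither a CArG box nor a half-site. The window chr10:67537316-67537565 holds another CArG box and no half-site. The windows chr10:67537620-67537869 and chr10:67537680-67537929 hold the same CArG box and half-sites as the one shown. Jun has its CRE-like site 45 bases before the start, in letters that 3.62% of all 32851 promoter windows of 300 bases hold on either strand. A CRE half-site occurs in 20.8% of those windows, a CArG box in 1.63% and TATAAA, searched on the gene's strand only, in 8.32%. Windows were searched for 8 of the 10 genes, and those of Fosl1 and Egr1 were not searched. Fosb, Junb and Atf3 also have a half-site. The EGR site GCGNGGGCG, present in 5.55% of windows on either strand, was found in those of Fosb and Fosl2. Neither the full CRE TGACGTCA (1.79% of windows) nor the AP-1 site TGANTCA (7.81%) was found in a window of these 8 genes.

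Libraries held 56948593 to 167280149 counts, and Acat1 was lower in all 3 KO libraries in both states, with a log2 fold change of -1.87 (SE 0.124, adjusted p = 0.00876) unstimulated and -2.08 (SE 0.130, adjusted p = 7.87e-04) after LPS. All 10 macrophage markers looked up were listed in both states, among them Adgre1, Csf1r, Cd68 and Lyz2, and their summed level ranged from 9593 to 12220.2 CPM (read counts scaled to a common library size) over the 12 libraries. Between genotypes Fcgr1 and Adgre1 were lower in unstimulated KO cells. Without WT replicate 1, edgeR still called Fcgr1 (log2 -0.71, adjusted p = 0.0453) but not Adgre1 (-0.88, adjusted p = 0.0604). After LPS Fcgr1 was lower (log2 -1.07) and Cd14, Itgam and Spi1 were higher (0.26 to 0.48). Of 14 markers of other cell types, 4 were listed unstimulated and 7 after LPS, and the 4 listed in both states summed to 4.62 to 6.84 CPM. Those 4 were Cd79a, Pecam1, Cdh5 and S100a8, and Col1a1, Dcn and Pdgfrb were listed only after LPS. Among those listed in neither state were Cd3e, Epcam and Ly6g. Of 5 such markers tested after LPS, 1 was called higher in KO cells, where 5.93% of all genes were. In 3 unstimulated libraries, WT replicates 1 and 2 and KO replicate 2, genes annotated as antisense took 0.144% to 0.199% of the counts, against 0.0732% to 0.0876% in the other 9. Because RNA came from whole cultures, fewer cells expressing a gene and less RNA per cell cannot be told apart.

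The replicate 1 libraries stood apart in many of these genes. Of the 9 genes with a mean of at least 1 CPM in unstimulated WT cells, all 9 were highest in replicate 1, and 7 were over 1.5-fold above the mean of the other WT libraries, a margin that 2.36% of all 12012 genes at this level reached. With LPS, 4 of 10 passed this margin in WT replicate 1, against 1.95% of all genes. Fos was there 9.61-fold above the mean of the other WT libraries, Egr1 8.39-fold, Fosb 5.90-fold and Fosl2 1.92-fold. In unstimulated KO replicate 1, 2 of 9 passed it (Egr2 and Atf3), against 1.18% of all genes, and Fos and Egr1 were highest in KO replicate 2. In KO replicate 1 with LPS, 4 of 10 passed it, against 0.624% of all genes, with Fos 3.35-fold and Egr1 3.12-fold above the other KO libraries. Of 33 other immediate early genes, 15 of the 29 at this level were over the margin in unstimulated WT replicate 1 and 12 of 29 in WT replicate 1 with LPS, against 6 of 28 and 3 of 29 in the KO libraries of that number. This margin was set after the values were seen and is a description, and results that move with a replicate 1 library are given below with and without it.

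**Figure D1:**
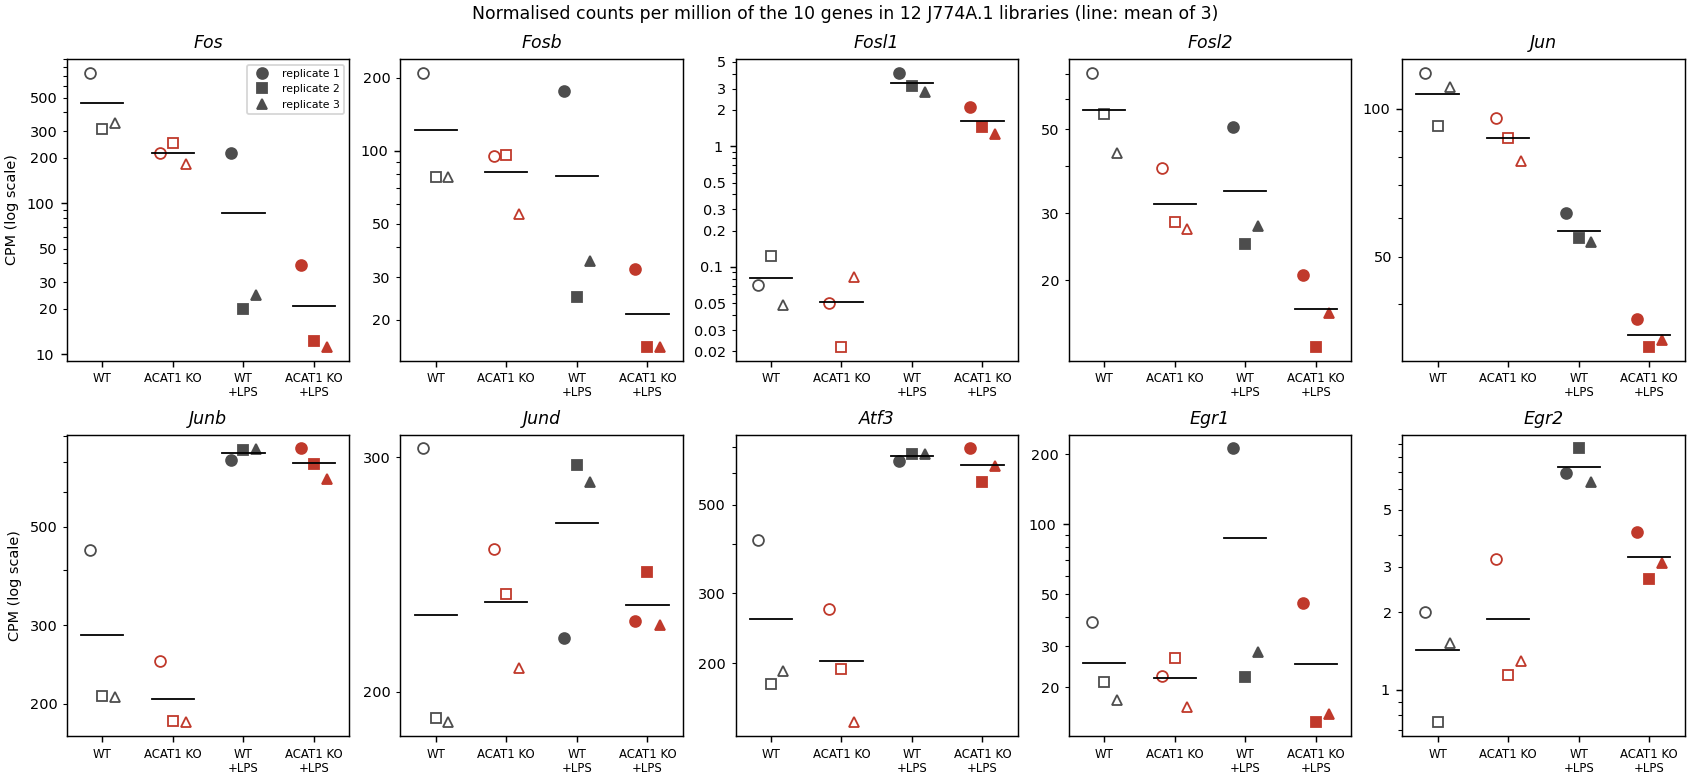
CPM (log axis, a range of its own in each panel) of the 10 genes in each of the 12 libraries. Open symbols are unstimulated and filled symbols LPS-treated cells, grey is WT and red ACAT1 KO, the shape gives the replicate number and the horizontal line the mean of 3. WT replicate 1 with LPS lies at 214 CPM for Fos and 212 for Egr1, far above the other libraries of its group.

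Levels between genes can be compared only per length, as CPM per kilobase of exon. Unstimulated WT cells held most Fos, at 196 ± 100.0 CPM per kb (SD, n = 3), then Jund at 137 ± 39.6, Junb at 124 ± 59.1 and Atf3 at 120.1 ± 60.1, whose ranges overlap. Jun followed at 33.6 ± 4.22 and Fosb at 19.5 ± 12.2. Fosl2 at 5.81 ± 1.41 and Egr1 at 5.68 ± 2.44 did not differ beyond their spread. Egr2 was near 0.420 ± 0.187, and Fosl1, with 2 to 10 counts per library in unstimulated cells of either genotype, was at 0.0396 ± 0.0186 CPM per kb. After LPS the order in WT cells was led by Junb at 318 and Atf3 at 308, each with an SD under 10, and Jund came next at 161 ± 25.2. Fos, at 36.6 ± 47.0, had an SD larger than its mean. In KO cells with LPS the same 3 genes led, at 302 ± 23.6, 293 ± 28.9 and 139 ± 7.17, and Jun at 10.9 ± 0.761 stood above Fos at 8.85 ± 6.73, within the spread of the latter. With the longest transcript as the length, Junb came before Jund in unstimulated WT cells, at 158 against 137. By that length Fosb was at 32.2 there, close to Jun at 33.6, and Fosl2 was at 8.61 against 5.68 for Egr1. In WT cells with LPS it placed Fosb above Jun, at 20.8 against 17.7.

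**Figure D2:**
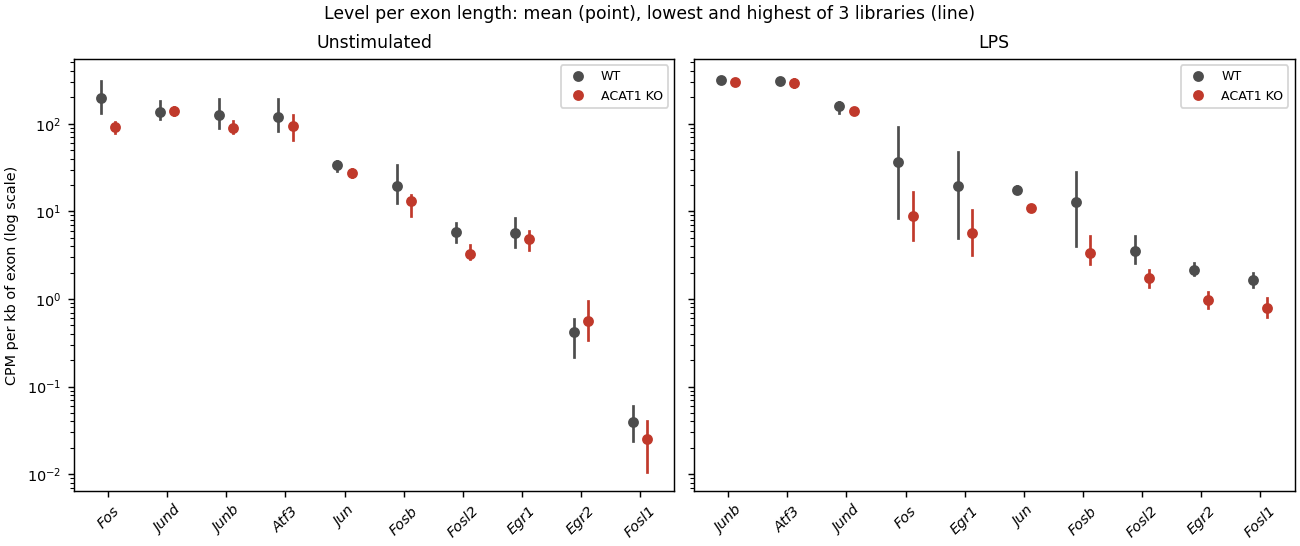
Level of each gene in CPM per kb of exon (log axis), with WT in grey and ACAT1 KO in red. Points are means, lines run from the lowest to the highest of 3 libraries, and genes are ordered by their WT mean within each state, from Fos at 196 unstimulated and from Junb at 318 with LPS.

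The first comparison asked what 2 h of LPS did to these genes in each genotype. The genes moved in different directions, also within a family: Junb and Atf3 rose in WT and KO cells, Egr2 rose in WT cells, and Fos, Jun and Fosl2 fell in both. Fosl1 rose from almost nothing, Fosb fell in KO cells, and Jund and Egr1 passed the test in neither genotype. By edgeR's quasi-likelihood test, 7 of 10 passed an adjusted p of 0.05 in WT cells, 4 higher and 3 lower, where 57.4% of all 16535 genes passed (29.3% higher, 28% lower). In KO cells 7 of 10 passed, 3 higher and 4 lower, against 60.7% of all genes (29.5% higher, 31.2% lower). Most genes of the table moved with LPS, so the count of 7 is near that of genes at large. The WT groups did not overlap for 4 genes that were higher (31.4% of all genes) and 2 that were lower (29.6%), and the KO groups for 3 higher (33.2%) and 4 lower (34.6%).

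Fos, the founding AP-1 subunit, was at 731, 309 and 340.2 CPM in unstimulated WT replicates 1, 2 and 3 and at 214, 19.8 and 24.7 with LPS. In KO cells it was at 214, 249 and 183 unstimulated and at 39.1, 12.2 and 11.2 with LPS. The groups do not overlap in either genotype, and replicate 1 was the highest LPS library in both. Fos fell 5.35-fold in WT cells (log2 -2.42, SE 0.825, adjusted p = 0.0250) and 10.4-fold in KO cells (log2 -3.38, SE 0.865, adjusted p = 0.00505). Within numbered WT lines the fall was 3.42-fold, 15.6-fold and 13.8-fold, and within KO lines 5.47-fold, 20.4-fold and 16.4-fold. The WT call was lost without unstimulated WT replicate 1 (adjusted p = 0.0809), without LPS WT replicate 2 (0.0678) or 3 (0.0765), and with a term for the antisense-rich libraries (0.0843). With WT line 1 left out of both states, a setting chosen after seeing the data, the fall of Fos was 3.87 on the log2 scale (adjusted p = 2.57e-04).

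Fosb, a close relative of Fos, was at 210.0, 77.9 and 77.8 CPM in WT cells and at 177, 24.9 and 35.0 with LPS. In KO cells it went from 95.4, 95.9 and 54.8 to 32.5, 15.5 and 15.5. The WT groups overlap through replicate 1, which stayed high with LPS, and the KO groups do not overlap. Fosb fell in KO cells (log2 -1.96, SE 0.685, adjusted p = 0.0268), a call that was lost in 4 of 12 fits that left out a library (KO replicates 1 and 2 and LPS KO replicates 2 and 3, adjusted p up to 0.0875). In WT cells the log2 difference was -0.63 (SE 0.659, adjusted p = 0.444). With the numbered line as a block it was -1.01 (adjusted p = 0.00960), and with WT line 1 left out of both states -1.39 (adjusted p = 0.0130).

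Fosl2, a FOS relative that lacks the strong activation domain of Fos, was at 70.6, 55.0 and 43.3 CPM in WT cells and at 50.7, 24.9 and 27.8 with LPS. KO cells held 39.5, 28.5 and 27.3 CPM and, with LPS, 20.6, 13.3 and 16.4. WT replicate 1 with LPS lies above the lowest unstimulated WT library, and the KO groups are separate. The fall was 1.63-fold in WT cells (log2 -0.71, SE 0.274, adjusted p = 0.0432) and 1.90-fold in KO cells (log2 -0.92, SE 0.276, adjusted p = 0.0123). Within lines Fosl2 was lower with LPS in 3 of 3 WT and 3 of 3 KO lines. Its WT call was lost in the fit of the 6 WT libraries alone (adjusted p = 0.0534), in 5 of 12 fits with a library left out (WT replicates 1 and 2, LPS WT replicates 2 and 3, LPS KO replicate 3, adjusted p up to 0.154) and with a term for the antisense-rich libraries (0.167), and its KO call without KO replicate 1 (0.0518) or LPS KO replicate 2 (0.0533).

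Fosl1, another such FOS relative, was covered by 5, 8 and 6 counts in unstimulated WT libraries and 7, 2 and 10 in KO libraries. With LPS it reached 347, 313 and 423 counts in WT and 181, 162 and 134 in KO cells. Every LPS library was therefore far above every unstimulated library, at a level that stayed low. The fitted rise was 5.43 on the log2 scale in WT cells (95% interval 4.53 to 6.33, adjusted p = 3.74e-07) and 4.89 in KO cells (SE 0.406, adjusted p = 6.87e-07), sizes that rest on the few unstimulated counts.

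Jun, the main partner of FOS proteins, was at 118, 92.3 and 111 CPM in WT cells and at 61.4, 54.5 and 53.5 with LPS. In KO cells it was at 96.0, 87.3 and 78.4 and, with LPS, at 37.4, 32.8 and 33.8. The groups are separate in both genotypes and the libraries of each group lie close together. Jun fell 1.90-fold in WT cells (log2 -0.93, SE 0.103, adjusted p = 1.00e-05) and 2.52-fold in KO cells (log2 -1.33, SE 0.105, adjusted p = 4.21e-07), in 6 of 6 lines.

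Junb, a JUN family member that activates less strongly than Jun, moved the other way. It was at 443, 208 and 207 CPM in WT cells and at 707, 743 and 747 with LPS, and in KO cells at 249.7, 183 and 182 and at 750.5, 692 and 642. All 6 LPS libraries lie above all 6 unstimulated ones. Junb rose 2.56-fold in WT cells (log2 1.36, SE 0.251, adjusted p = 5.78e-04) and 3.39-fold in KO cells (log2 1.76, SE 0.254, adjusted p = 7.53e-05). The rise within WT line 1 was 1.60-fold against 3.57-fold and 3.61-fold in the other WT lines, since its unstimulated level was already high. Jund, the family member that cells express most steadily, was at 305, 191 and 189.6 CPM in WT cells, 219, 296 and 288 with LPS, and 208 to 256 in the 6 KO libraries with and without LPS. It was lower with LPS in WT line 1 and higher in WT lines 2 and 3. The log2 difference for Jund was 0.23 in WT cells (SE 0.173, adjusted p = 0.283) and -0.0088 in KO cells (SE 0.173, adjusted p = 0.970). Without WT line 1 in both states Jund passed in WT cells, at 0.61 (adjusted p = 4.12e-04).

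Atf3 ran with Junb. Its level was 408, 178 and 191 CPM in WT cells and 647, 672 and 673 with LPS, and 273, 193 and 142 in KO cells and 694, 569.7 and 627 with LPS. No LPS library overlaps an unstimulated one. Atf3 rose 2.56-fold in WT cells (log2 1.36, SE 0.295, adjusted p = 0.00185) and 3.11-fold in KO cells (log2 1.64, SE 0.298, adjusted p = 4.75e-04).

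Egr1, a zinc finger factor induced by growth factors and stress, was at 37.9, 21.0 and 17.5 CPM in WT cells and at 212, 22.1 and 28.3 with LPS. KO cells held 22.4, 26.7 and 16.4 CPM and, with LPS, 45.9, 14.1 and 15.3. Within each genotype, replicate 1 with LPS was high and the other LPS libraries lay within or near the unstimulated range. Egr1 differed by 1.78 on the log2 scale in WT cells (SE 0.770, adjusted p = 0.0671) and by 0.20 in KO cells (SE 0.753, adjusted p = 0.836). Without LPS WT replicate 1 the WT value for Egr1 was -0.011, and without LPS WT replicate 2 or 3 it was 2.24 (adjusted p = 0.0230) or 2.20 (adjusted p = 0.0321), so whether Egr1 passed turned on single libraries. Egr2, a relative that macrophages use in differentiation, was low, at 2.01, 0.748 and 1.52 CPM in WT cells and 6.92, 8.66 and 6.42 with LPS, and at 3.23, 1.14 and 1.30 in KO cells and 4.09, 2.70 and 3.09 with LPS. All 3 WT libraries with LPS lie above all others, while KO replicate 1 unstimulated lies above KO replicates 2 and 3 with LPS. Egr2 rose 5.12-fold in WT cells (log2 2.36, SE 0.418, adjusted p = 4.22e-04). In KO cells its log2 difference was 0.79 (SE 0.400, adjusted p = 0.105), which passed with the line as a block (0.93, adjusted p = 0.0286) and without KO replicate 1 (1.43, adjusted p = 0.00428).

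**Figure D3:**
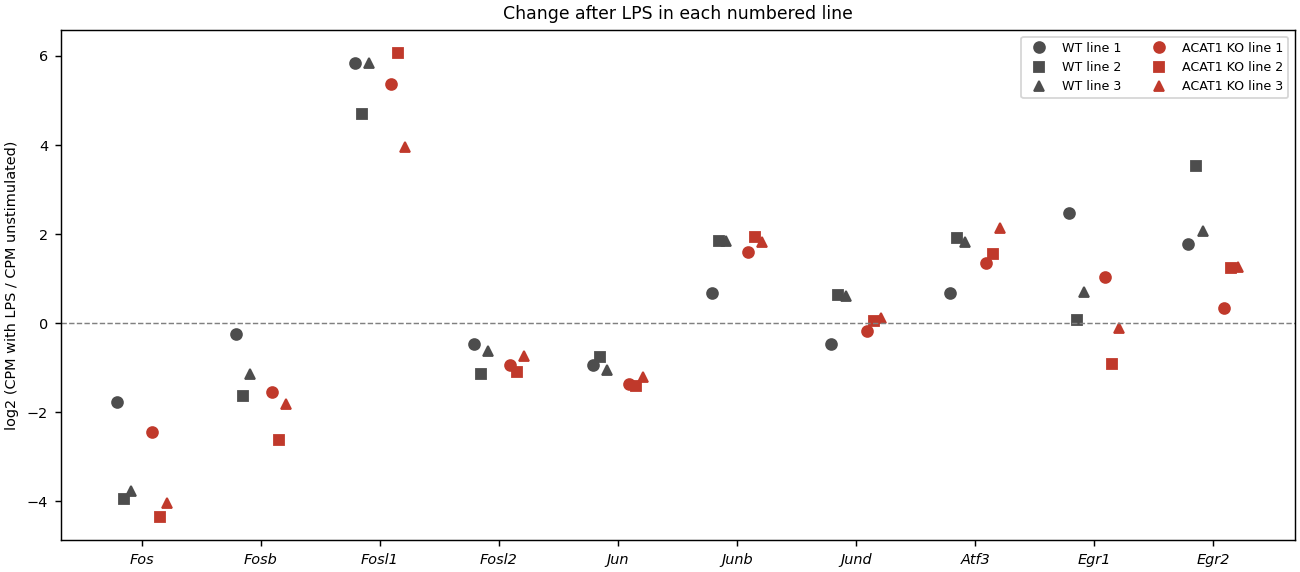
Log2 ratio of CPM with LPS to CPM without it, in each numbered line, for WT (grey) and ACAT1 KO (red), with the shape giving the line number. Fos, Jun and Fosl2 lie below 0 in 6 of 6 lines and Junb and Atf3 above 0 in 6 of 6, while WT line 1 is the highest WT line for Fos, Fosb and Egr1.

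The next comparison asked whether loss of ACAT1 changed these genes in unstimulated cells. Of 10 genes 9 could be tested, since Fosl1 was under the count filter. By edgeR's quasi-likelihood test with adjustment over all genes 0 of 9 passed, where 1.91% of 16440 genes did. At an unadjusted p of 0.05, the threshold the study itself used, Fos, Fosl2 and Jun were lower in KO cells, 3 of 9 against 9.93% of all genes. At the adjusted threshold DESeq2 called 1 of 9, Fosl2, where it called 1721 of 16440 genes. With limma-voom it was 0 of 9, where 287 genes were called. Fosl2 was at 43.3 to 70.6 CPM in WT and 27.3 to 39.5 in KO libraries, with no overlap and a log2 difference of -0.81 (SE 0.208, adjusted p = 0.102). Fos, at 309 to 731 against 183 to 249 CPM, differed by -1.09 (SE 0.333, adjusted p = 0.147), also without overlap. A separation of this kind towards lower KO values was seen in 13.3% of 15994 genes. Jun differed by -0.29 (SE 0.114, adjusted p = 0.229) and its groups overlap. Without WT replicate 1 the values were -0.63 for Fosl2, -0.59 for Fos and -0.22 for Jun, none of them called.

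The other tested genes showed smaller or wider differences. Fosb differed by -0.56 (SE 0.430), Junb by -0.47 (SE 0.314), Atf3 by -0.34 (SE 0.370) and Egr1 by -0.21 (SE 0.311). Without WT replicate 1 the values for Fosb (0.073), Atf3 (0.14) and Egr1 (0.18) changed sign and that of Junb was -0.023. Jund at 0.041 (95% interval -0.42 to 0.50) and Egr2 at 0.41 (-0.78 to 1.61) had intervals that reach well to both sides of 0. The median over the 9 genes was -0.34, against 0.0035 over all genes tested. It turned to 0.073 without WT replicate 1, to -0.63 without KO replicate 1 and to -0.13 without replicate 1 of both genotypes.

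After LPS, ACAT1 KO cells held less of 4 of the 10 genes: Jun, Egr2, Fosl1 and Fosl2 were lower, and none was higher. Lower calls made up 9.12% of the 16483 genes tested and calls in either direction 15.1%. The groups did not overlap for the same 4 genes, a separation towards lower KO values that 22.2% of 15908 genes showed. All 10 log2 differences were negative, with a median of -1.03 against -0.0041 over all genes. Without LPS WT replicate 1 it was -0.40 with 9 of 10 negative, and without LPS KO replicate 1 it was -1.23 with 10 of 10 negative. Without replicate 1 of both genotypes, a setting chosen after seeing the data that leaves 2 libraries a group, it was -0.78 with 10 of 10 negative, and 8 of 10 genes passed, all lower, where 1410 of 16652 genes did, 943 of them lower.

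Jun was at 53.5 to 61.4 CPM in WT and at 32.8 to 37.4 in KO cells with LPS. Every KO library lay well under every WT library, and the difference was 1.61-fold (log2 -0.68, SE 0.0774, adjusted p = 0.00310). It was called in 6 of 6 fits that left out a library, with log2 values from -0.74 to -0.62. Egr2, at 6.42 to 8.66 CPM in WT and 2.70 to 4.09 in KO cells, was 2.20-fold lower (log2 -1.14, SE 0.174, adjusted p = 0.00721) and was also called in 6 of 6 such fits. In a single fit over all 12 libraries, which shares the wider spread of unstimulated cells, the adjusted p for Egr2 was 0.0805.

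Fosl1, with 313 to 423 counts in WT and 134 to 181 in KO libraries, was 2.05-fold lower (log2 -1.04, SE 0.215, adjusted p = 0.0193). Its call was lost without LPS KO replicate 2 (adjusted p = 0.0759) or 3 (0.0660). Fosl2 was at 24.9 to 50.7 CPM in WT and 13.3 to 20.6 in KO cells, 2.02-fold lower (log2 -1.02, SE 0.271, adjusted p = 0.0409). All KO libraries of Fosl2 lie below all WT libraries. The Fosl2 call was lost in 4 of 6 fits with a library left out, which were those without LPS WT replicate 3 (adjusted p = 0.0501) and LPS KO replicates 1 (0.0649), 2 (0.134) and 3 (0.112), and by limma-voom (0.0504). Without LPS WT replicate 1 the difference for Fosl2 shrank to -0.64 and stayed called (adjusted p = 0.0394), and that for Fosl1 was -0.88 (adjusted p = 0.0324).

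For Fos, Fosb and Egr1 the mean differences were large, did not pass the adjusted threshold, and depended on the replicate 1 libraries. Fos differed by -2.03 (SE 0.930, adjusted p = 0.179), Fosb by -1.88 (SE 0.706, adjusted p = 0.113) and Egr1 by -1.78 (SE 0.871, adjusted p = 0.206). Without LPS WT replicate 1 the differences were -0.087 for Fos, -0.49 for Fosb and 0.0021 for Egr1. WT replicates 2 and 3 held 19.8 and 24.7 CPM of Fos, inside the KO range of 11.2 to 39.1. Fosb was at 24.9 and 35.0 CPM in the same WT libraries and at 15.5 to 32.5 in KO cells, and Egr1 at 22.1 and 28.3 against 14.1 to 45.9. The top of each KO range is KO replicate 1, which was also high. Without replicate 1 of both genotypes the KO libraries lay below the WT libraries for all 3 genes. The differences were then -0.91 for Fos (adjusted p = 0.0127, edgeR), -0.93 for Fosb (0.0196) and -0.76 for Egr1 (0.0214). That setting was chosen after replicate 1 was seen to be high, and it leaves 2 libraries a group. Leaving out the extreme libraries narrows the spread that the test uses, so these passes are a description only.

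Junb differed by -0.055 (95% interval -0.21 to 0.10, adjusted p = 0.628) and Atf3 by -0.053 (-0.23 to 0.13, adjusted p = 0.681) after LPS. Jund differed by -0.18 (-0.44 to 0.067, adjusted p = 0.292). Without LPS WT replicate 1, where Jund was lowest among WT libraries, Jund was called at -0.31 (adjusted p = 0.0174). Without replicate 1 of both genotypes, the setting chosen after seeing the data, Jund was called at -0.29 (adjusted p = 0.0475).

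**Figure D4:**
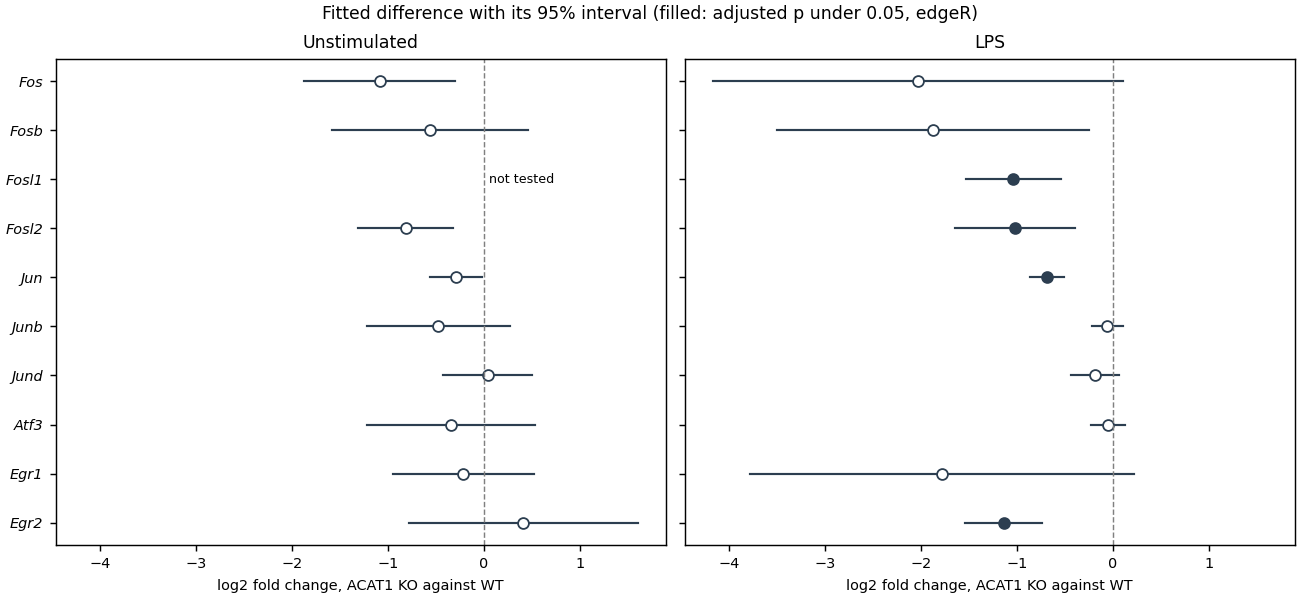
Fitted log2 fold change of ACAT1 KO against WT for each gene, unstimulated (left) and with LPS (right), with its 95% interval. Filled points passed an adjusted p of 0.05 (edgeR), which 0 genes did unstimulated and Fosl1, Fosl2, Jun and Egr2 did with LPS, and the intervals of Fos and Egr1 with LPS reach past 0.

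**Figure D5:**
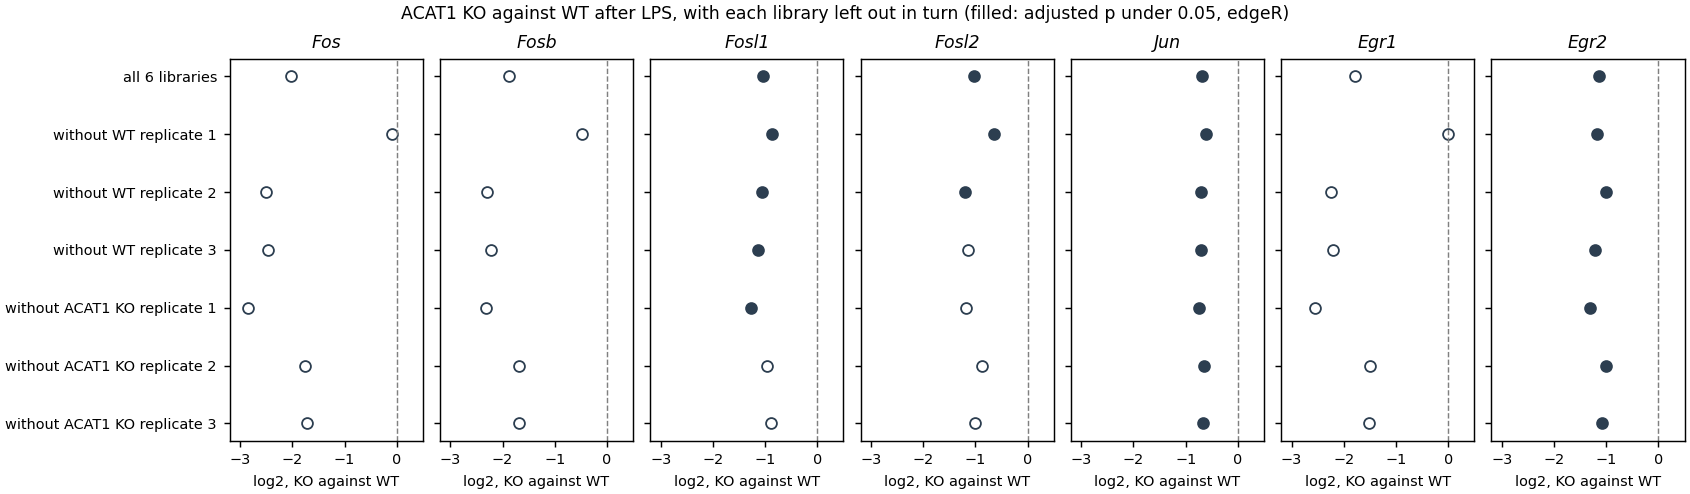
Log2 fold change of ACAT1 KO against WT with LPS for 7 genes, from all 6 libraries (top) and with each library left out in turn, filled where the adjusted p was under 0.05 (edgeR). Fos and Egr1 move to -0.087 and 0.0021 without WT replicate 1, while Jun and Egr2 stay called in 6 of 6 fits.

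Whether the LPS response itself differed between genotypes was tested as an interaction in the fit of all 12 libraries. By edgeR 0 of 10 genes passed the adjusted threshold, where 0.187% of 16535 genes did, 31 in number. At an unadjusted p of 0.05, 2 of 10 genes passed, against 8.92% of all genes, and DESeq2 gave 2 as well, where 1382 of 16535 genes passed. These were Jun, with a log2 difference in response of -0.41 (SE 0.145, unadjusted p = 0.0167, adjusted p = 0.374), and Egr2, with -1.56 (SE 0.568, unadjusted p = 0.0181, adjusted p = 0.386). The change of Jun was -1.41 to -1.21 on the log2 scale in KO lines and -1.05 to -0.76 in WT lines. Egr2 changed by 0.34 to 1.25 in KO and 1.78 to 3.53 in WT lines. The share of all genes whose lines lie apart in this way was not counted, so these ranges are a description only. With WT line 1 left out of both states and the line as a block, 1 of 10 genes passed, Jund, at -0.62 (adjusted p = 0.0364). That setting was chosen after seeing the data, and it called 263 of 16584 genes. In the main fit Jund was at -0.24 (adjusted p = 0.892).

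Some values moved beside these results. Genes of chromosome 12, which carries Fos (ENSMUSG00000021250, chr12:85473890-85477273, plus strand, GRCm38), were lower in KO cells as a group: the other 583 genes tested after LPS had a median log2 difference of -0.28, and 41.2% of them were called lower. The chromosome's part in the Fos value was not tested, and Fos less that median was -0.83 unstimulated and -1.75 with LPS. The chromosomes of the 4 genes called after LPS had medians from -0.052 (chromosome 10, Egr2) to 0.018 (chromosome 19, Fosl1). On chromosome 10, 17.8% of the other 753 genes were called lower, against 6.81% to 7.53% on the chromosomes of Jun, Fosl1 and Fosl2. The part of chromosome 10 in the Egr2 value was not tested. Jun is the single exon at chr4:95049034-95052222, Egr2 lies at chr10:67535475-67542188, Fosl1 at chr19:5447547-5455946 and Fosl2 at chr5:32135801-32157842. Junb (chr8:84974484-84978718) and Jund (chr8:70698949-70700616, 1 exon) share chromosome 8, Fosb lies at chr7:19302696-19310051 and Atf3 at chr1:191170296-191218039.

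Several of these genes share exonic bases with a gene on the other strand, and how the counting used strand is not given in the sources used here. Fosl1 shares 1163 bases (57.2% of its exons) with Ccdc85b, which fell with LPS by 1.46 on the log2 scale in WT and by 1.62 in KO cells while Fosl1 rose, and which differed between genotypes after LPS by -0.18 (adjusted p = 0.308). Jund shares 877 bases (52.6%) with the antisense gene Gm11175. That gene was at 23.3, 16.9 and 28.8 CPM in WT replicates 1 and 2 and KO replicate 2 unstimulated and at 0.457 to 0.993 in the other 9 libraries. Junb shares 173 bases with Prdx2, and Jun 232 with Junos, which was at 0.163 to 2.02 CPM. The part of these partners in the values was not tested.

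Genes around this response were read as lists, of which 4 are described by their calls after LPS, since unstimulated KO and WT cells differed in 0 of 21 bZIP relatives, 0 of 30 kinases and SRF cofactors, 0 of 6 corepressor and turnover genes and 1 of 20 target genes. That gene was Thbs1 (log2 -2.27, adjusted p = 0.0162, and 0.0547 without WT replicate 1), and 1.91% of all genes passed unstimulated. Of 21 other bZIP factors that can pair with or compete with AP-1, 6 passed between genotypes after LPS (28.6%, against 15.1% of all genes), 4 lower and 2 higher. Nfil3, a bZIP repressor, was lower in KO cells (log2 -0.83, SE 0.0854, adjusted p = 0.00254), as were Atf7 at -0.33 and Atf4, the integrated stress response factor, at -0.58. Maff, a small MAF protein, was higher at 0.52. Without LPS WT replicate 1, 8 of the 21 passed, 5 lower and 3 higher, where 2245 of 16817 genes passed. With LPS 17 of the 21 passed in WT cells, where 57.4% of all genes did, 12 of them higher, among them Nfe2l2, the regulator of antioxidant genes (log2 1.61), and Batf2 (3.12). In KO cells 13 passed higher and 8 lower, where 29.5% and 31.2% of all genes did.

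Of 32 other immediate early genes tested after LPS, 5 passed between genotypes (15.6%, near the 15.1% of all genes), 4 lower and 1 higher in KO cells. Myc was lower (log2 -0.52, SE 0.0552, adjusted p = 0.00269), as were Trib1 (-0.32) and Klf2 (-0.85, and -0.51 without LPS WT replicate 1), and Nr4a3 was higher (0.78). Unstimulated, 3 of 31 passed (9.68%, against 1.91% of all genes) and all were lower. They were the nuclear receptor gene Nr4a1 (log2 -1.58, adjusted p = 0.0390), Arc (-1.42, adjusted p = 0.0400) and the ERK phosphatase gene Dusp5 (-1.56, adjusted p = 0.0477). Nr4a1 was at 25.3, 14.6 and 15.01 CPM in WT and 5.10 to 6.65 in KO cells. WT replicate 1 was the highest library for all 3, and without it 0 were called, with log2 differences of -1.29 for Nr4a1, -1.20 for Arc and -1.21 for Dusp5 (adjusted p 0.0604 to 0.0931). With LPS 12 of 31 were higher and 12 lower in WT cells (38.7% each, against 29.3% and 28% of all genes). Gadd45b rose by 6.65 and Nfkbiz, an atypical IκB, by 2.95 on the log2 scale, while Dusp6 fell by 2.57. In KO cells 11 were higher and 12 lower, against 29.5% and 31.2% of all genes. In the interaction test 2 of 31 genes of this list passed (6.45%, against 0.187% of all genes). These were Gadd45b, with a larger fitted rise in KO cells (log2 1.08, adjusted p = 0.0383), and Myc (-0.54, adjusted p = 0.0463). Gadd45b was at 1.32 to 1.88 CPM in unstimulated WT cells and at 0.710 to 0.869 in KO cells. With LPS it was at 142 to 161 CPM in WT and 156 to 172 in KO cells, so its rise was measured from low unstimulated levels. Myc rose with LPS in WT cells by 0.39 and differed by -0.15 in KO cells (adjusted p = 0.0609).

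The kinases and SRF cofactors upstream showed 6 lower and 0 higher of 30 in KO cells after LPS, against 9.12% of all genes called lower, with the same counts when LPS WT replicate 1 was left out. Map3k1, an upstream JNK kinase, was lower by -0.81 (SE 0.0842, adjusted p = 0.00261), Srf itself by -0.50 (SE 0.0775, adjusted p = 0.00730), Mrtfb, a coactivator of SRF, by -0.40 and Map3k5 by -0.38. With LPS 14 of the 30 were higher and 7 lower in either genotype, 21 in all where 57.4% of all genes passed in WT cells, and Mapkapk2 rose in WT cells by 1.77 and Map3k8, the ERK pathway kinase activated by TLR4, by 2.31. Another 6 genes are for EGR corepressors and for ubiquitin ligases that turn JUN over. After LPS 1 of them passed between genotypes (16.7%, near the 15.1% of all genes), Fbxw7 at -0.29 (adjusted p = 0.0225). Nab1, an EGR corepressor, rose by 1.04 with LPS in WT cells. With LPS 4 of the 6 were higher and 1 lower in WT cells, where 29.3% and 28% of all genes were. The counts were the same in KO cells, against 29.5% and 31.2% of all genes.

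Of 21 genes often cited as AP-1 targets, 6 were higher and 4 lower in KO cells after LPS (47.6% in all, against 15.1% of all genes). Il6 (log2 1.40, adjusted p = 0.0126) and Il1b (1.46, adjusted p = 0.0130), both cytokines, were higher, and Thbs1 (-1.26, adjusted p = 0.00485) and the urokinase receptor gene Plaur (-0.47, adjusted p = 0.00817) were lower. The median of this list was 0.24. With LPS 12 of 20 rose in WT cells, among them Plaur (2.40) and Cd44 (2.62), and 3 fell, where 29.3% and 28% of all genes did. In KO cells 13 were higher and 3 lower, where 29.5% and 31.2% of all genes were.

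Across the 12 libraries some members ran together. Atf3 and Junb were most alike, with a Pearson r of 0.989 between their log2 CPM, and Fos ran with Fosb (0.935) and Jun (0.922) but opposite to Atf3 (-0.68) and Junb (-0.70). Jund (r = -0.25 with Fos and 0.54 with Atf3) and Egr1 (0.28 and 0.37) followed neither closely. Outside the members, of 11961 genes, those most like Fos were Klf4 (r = 0.9750), Snx8 (0.972) and Hes1 (0.966), and those most like Jun were Acot2 (0.993), Papss1 (0.989) and Dennd3 (0.988). Atf3 was most like Phlda1 (0.977), Csrnp1 (0.976) and Hspa8 (0.972). Egr1, which follows the replicate 1 libraries, was most like Lpar2 (0.922), Zfand2a (0.882) and Slc39a10 (0.881). The 12 points fall into an unstimulated and an LPS cluster and share their lines, so these values describe the order of libraries only.

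Short-lived transcripts often carry the pentamer ATTTA in the 3′ UTR, and the members differ widely in it. Fos has 4 in its 815 bases, or 4.91 per kb, a density that 6.39% of 11973 genes with a 3′ UTR reach, and Junb has 4.12 per kb (9.86% of genes). Jun follows at 3.24, Atf3 at 2.53 and Egr2 at 2.50 per kb, against a median of 1.28, and Fosb has the lowest density of the 10, at 0.466. The longer form TTATTTATT is in Fos and Fosl2, 2 of 10, and in 7.95% of all genes. Fos, which fell with LPS, and Junb, which rose, have the highest densities of the 10.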

How the data were processed

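RNA-seq was run on 12 libraries. Per the submitters' notes and methods, libraries were made with a directional kit, reads were trimmed with Trimmomatic 0.33, aligned to GRCm38 with HISAT2 and quantified with StringTie. The authors deposited raw counts per gene in 1 table per state, beside 12 columns of log2 values that were not used. Every listed gene had at least 4 counts in at least 5 libraries. Repeated rows (59 and 57) were removed. Total counts per library set the precision, and low counts such as those of Fosl1 carry the most counting error.

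Counts were tested with edgeR 4.0.16 in R 4.3.3 (TMM, filterByExpr, quasi-likelihood F test, two-sided, Benjamini-Hochberg adjustment over all genes tested, called at 0.05). Genotypes were compared within each state (6 libraries), and LPS responses and their difference in 1 fit of all 12 libraries over genes in both tables. Printed CPM are TMM-scaled over the 12 libraries. Ranges that do not overlap were counted on these CPM for genes in both tables. Alternatives were DESeq2 1.42.0, limma-voom 3.58.1, other normalizations and filters, blocks, and each library left out. Leaving out WT line 1, leaving out replicate 1 of both genotypes and a term for the 3 antisense-rich libraries were chosen after seeing the data. Scripts were tested on simulated data. Unstimulated and LPS libraries of 1 number deviated together from their group means (r 0.329 to 0.612 in 6 pairs over 8738 genes), so numbers were taken as lines, while WT and KO libraries of 1 number did not in every pair (r from -0.11 to 0.555). No library copied another (chi-square per degree of freedom 34.1 to 287).

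Gene lengths, positions and 3′ UTRs are from GENCODE M21 (GRCm38), the longest coding transcript for UTRs, and promoters from RefSeq. The members and lists were chosen with earlier results of these data known. Of each list at most 4 called genes a comparison, by smallest p, are named, and for Fos, Jun, Egr1 and Atf3 the 3 genes most like each. The lists were described by counts, without list tests, and some of their genes are not reported here.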

Additional observations from a re-analysis of the deposited data

How the results depend on the processing

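In unstimulated cells the count of members called between genotypes was 0 with edgeR and 1 (Fosl2) with DESeq2 or with the replicate number as a block. After LPS it was 4, and 7 with that block, which added Fos, Fosb and Egr1, and 2 to 5 with 1 library left out, the 2 coming without LPS KO replicate 2 or 3. It was 8 without replicate 1 of both genotypes, chosen after seeing the data, which added Fos, Fosb, Egr1 and Jund, and 0 unstimulated. WT and KO numbers do not pair by the check in the processing section. The block by line changed the calls given in the report (Fosb in WT, Egr2 in KO) and no other member's. For the LPS responses 6 to 8 members were called in WT and 5 to 7 in KO cells with 1 library left out, and 0 in the interaction, where leaving out WT line 1 with the line block gave 1. DESeq2 gave no adjusted p for Fos, Fosb and Egr1 in the 12-library fit or for Fos and Egr1 between genotypes after LPS.

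Over all genes, unstimulated calls were 314, and 1721 with DESeq2, 475 with at least 10 counts in every library, 151 with the block, 1353 in the 12-library fit, 664 with the antisense term, 0 without replicate 1 of both genotypes (2172 at an unadjusted p of 0.05) and 7 to 522 with 1 library left out. After LPS they were 2481, 2230 with the block, 1410 without replicate 1 of both genotypes, and 867 to 2245 with 1 left out. Interaction calls were 31, and 334 with DESeq2, 11 with limma-voom, 288 with the line block, 263 when WT line 1 was also left out, 69 with the antisense term and 2 to 41 with 1 left out.

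Values changed sign in these settings, and the cause was not tested. Egr1 was -0.020 with LPS in KO cells by limma-voom, and between unstimulated genotypes 0.17 without replicate 1 of both and 0.013 with the antisense term, which gave Jund 0.058 with LPS in KO cells. With WT line 1 left out, the interaction was 0.49 for Fos, -0.077 for Junb and -0.23 for Atf3, and 0.28, -0.064 and -0.18 with the line block. With 1 library left out, unstimulated genotype differences ran from -0.80 to 0.073 for Fosb, -0.63 to 0.14 for Atf3, -0.42 to 0.18 for Egr1, -0.075 to 0.29 for Jund and -0.23 to 0.73 for Egr2. After LPS they ran from -2.55 to 0.0021 for Egr1, -0.13 to 0.016 for Atf3 and -0.11 to 0.0016 for Junb. LPS responses ran from -0.011 to 2.24 for Egr1 in WT cells, and in KO cells from -0.57 to 0.48 for Egr1 and -0.085 to 0.062 for Jund. Interactions ran from -1.78 to 0.99 for Fos, -1.93 to 0.065 for Fosb, -0.40 to 0.17 for Fosl2, -0.020 to 0.59 for Junb, -0.18 to 0.55 for Atf3 and -2.35 to 0.21 for Egr1. Scaling by relative log expression or upper quartile changed no member's sign or call.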
